A study of Mus musculus with 2 samples.

Results

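The genes described here carry haem breakdown, iron storage, iron export and iron uptake: Hmox1, Blvra, Blvrb, Fth1, Ftl1, Slc40a1 and Tfrc. They were taken by symbol, and all 7 were found among the 55450 genes of both count matrices. Their levels were read by macrophage state and by marker-defined cell class in each library. The material was aorta from Apoe-/- mice aged 12 weeks in which angiotensin II had induced an abdominal aortic aneurysm. The animals that received an inhibitor formed one group and the animals that received DMSO the other, and both groups shared the genotype, the age and the angiotensin II. Each aorta was cut into 5 segments, digested with enzymes and loaded on a 10x Chromium 3′ v3 chip with a target of 5000 cells, and 1 library was made per group. The inhibitor is not named in the labels, the number of animals behind each library is not given, and the library titles carry only initials that were read as inhibitor and DMSO from the series design.

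Haem oxygenase opens the haem ring and yields biliverdin, carbon monoxide and free iron, and biliverdin reductases turn biliverdin into bilirubin. The iron is held inside ferritin, a shell of heavy and light chains, or leaves the cell through ferroportin, the only known iron exporter of mammals, while transferrin receptor 1 brings transferrin-bound iron in. Macrophages run this pathway at high capacity because they clear red cells and haemoglobin, and bleeding into the wall makes haem a known load of aneurysmal tissue. Several of the mRNAs carry an iron-responsive element, a short hairpin bound by iron regulatory proteins when iron is scarce: in a 5′ untranslated region the bound hairpin blocks translation, and in the 3′ untranslated region of Tfrc it protects the mRNA from decay.

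The hairpins are shown because they mark where iron regulatory proteins bind. At a 5′ site the binding acts on translation, which counts of mRNA do not measure, and at the Tfrc sites on mRNA decay. A 5′ site, or the lack of a site, does not tell whether an mRNA level answers to iron by another route. The search asked for a C, 5 bases, the loop CAGTGN and 5 bases that pair with the first 5 over all 5 positions (a G and T pair allowed), on the transcript strand of the GENCODE M21 annotation of GRCm38. It found 1 site each in the 5′ untranslated regions of Fth1, Ftl1 and Slc40a1, 4 sites in the 3′ untranslated region of Tfrc, and no match in Hmox1, Blvra or Blvrb. The same motif stood in the 5′ untranslated region of 0.148% of 20899 genes and in the 3′ untranslated region of 0.614% of 21022 genes. Each line below gives 29 bases 5′ to 3′ with the loop in capitals.
Fth1 5′ untranslated region, chr19:9982732-9982760, plus strand: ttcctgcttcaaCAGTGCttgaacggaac
Ftl1 5′ untranslated region, chr7:45459779-45459807, minus strand: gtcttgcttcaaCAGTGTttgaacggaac
Slc40a1 5′ untranslated region, chr1:45925465-45925493, minus strand: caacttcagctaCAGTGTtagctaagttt
Tfrc 3′ untranslated region, site 1, chr16:32631219-32631247, plus strand: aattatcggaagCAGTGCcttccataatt
Tfrc 3′ untranslated region, site 2, chr16:32631598-32631626, plus strand: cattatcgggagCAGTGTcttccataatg
Tfrc 3′ untranslated region, site 3, chr16:32631663-32631691, plus strand: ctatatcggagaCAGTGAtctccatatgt
Tfrc 3′ untranslated region, site 4, chr16:32631710-32631738, plus strand: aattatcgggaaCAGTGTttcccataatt

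The libraries held 79648307 UMIs over 8149 barcodes with inhibitor and 101139161 UMIs over 9125 barcodes with DMSO. The filters kept 7417 inhibitor cells (median depth 8991 UMIs) and 8411 DMSO cells (median depth 7935 UMIs), and 15 barcodes occurred in both libraries. Cells were clustered without the iron and haem genes and without the marker genes, and the labelled tissue was checked against smooth muscle, fibroblast, endothelial and macrophage marker genes, none of which was at 0 in its own class in either library. Macrophage-like cells numbered 677 with inhibitor and 1660 with DMSO. Within them the resident-like state (Lyve1, Folr2, Cd163) had 274 cells with inhibitor and 379 with DMSO, and the lipid-handling-like state (Gpnmb, Trem2, Spp1) had 91 with inhibitor and 470 with DMSO. A subcluster led by Ms4a4c, Ccr2 and Ciita kept no state name, because its leading genes mixed monocyte and MHC class II markers, and is called subcluster 2 (125 cells with inhibitor, 380 with DMSO). A further one led by Ch25h, Nes and Tmem119 is called subcluster 3 (96 with inhibitor, 183 with DMSO).

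A level is the sum of a gene's UMIs over the cells of a class in a library, per 1000000 UMIs of those cells (CPM), with its exact Poisson 95% interval where given. A ratio is inhibitor over DMSO with an exact 95% counting interval, and a gene was counted as past the limit when the ratio was at least 1.5-fold either way, the interval left out 1, the gene reached 20 CPM in a library and it had 20 UMIs in all. With 1 library per group there is no replicate, so intervals and limits cover counting error only, no test between inhibitor and DMSO is possible, and a difference between the libraries cannot be told apart from the treatment.

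Hmox1, the inducible haem oxygenase (gene at chr8:75093621-75100589), was mainly a macrophage transcript. Macrophage-like cells held 45.4% of all its UMIs with inhibitor and 58.8% with DMSO. In lipid-handling-like macrophages it stood at 325 CPM (292 to 361) with inhibitor and 497 CPM (477 to 517) with DMSO. Among the units compared it stood highest with DMSO, whereas with inhibitor its interval met that of resident-like cells. The MHC class II high-like state, with 36 cells with inhibitor and 41 with DMSO and therefore not compared, had 467 CPM with inhibitor and 404 CPM with DMSO. In lipid-handling-like cells the ratio was 0.655 (0.584 to 0.733), past the limit. A single inhibitor cell carried 91 of the 349 Hmox1 UMIs of that state, and the highest DMSO cell carried 106 of 2394. Without the highest cell of each library, an alternative chosen after seeing the data, the levels were 243 CPM with inhibitor and 476 CPM with DMSO and the ratio was 0.511, and the inhibitor level then lay under the 278 CPM of resident-like cells. The call was lost in 6 of 14 alternatives, with a log2 ratio of -0.32 as a mean over scaled cells and -0.50 in cells with at most 10% mitochondrial UMIs.

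In resident-like macrophages Hmox1 stood at 284 CPM (254 to 316) with inhibitor and 300 CPM (274 to 327) with DMSO. These levels overlapped, and their ratio of 0.946 (0.820 to 1.09) was not past the limit. Subcluster 2 held 141 CPM with inhibitor and 249 CPM with DMSO, a ratio of 0.565 (0.463 to 0.684), past the limit. Subcluster 3 was lower in both libraries, at 102 CPM with inhibitor and 126 CPM with DMSO, and was not past the limit. The macrophages past the limit were thus the lipid-handling-like state and subcluster 2, and the difference between states in this ratio was not tested. The resident-like log2 ratio, -0.08, was -0.55 at clustering resolution 0.5, where the state was cut differently. A finer macrophage clustering gave several resident-named subclusters. The one led by Ccl8 held 76 cells with inhibitor and 295 with DMSO, and that led by Lyve1 held 172 with inhibitor and 55 with DMSO. The part of this makeup in the resident-like ratios was not tested. Median depth of the state was 3512 UMIs with inhibitor and 3874 with DMSO, and its median mitochondrial share 7.42% with inhibitor and 9.49% with DMSO. The share of cells with an Hmox1 UMI was read after each cell was thinned to 2000 UMIs. In lipid-handling-like cells the share was 33.3% (29 of 87 cells) with inhibitor and 44.8% (206 of 460) with DMSO, with intervals that met, and unthinned it was 69.2% with inhibitor and 74.0% with DMSO. In subcluster 2 the thinned share was 18.5% (22 of 119) with inhibitor and 34.2% (128 of 374) with DMSO, and these intervals did not meet. T cell-like cells, in which free RNA gives a view of the background, had 0 of 63 thinned cells with inhibitor, which allows a share of up to 4.76%, and 4.41% (10 of 227) with DMSO. Their median depth was 4008 UMIs with inhibitor and 4059 with DMSO, against 9696 with inhibitor and 8250 with DMSO in lipid-handling-like cells.

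**Figure D1:**
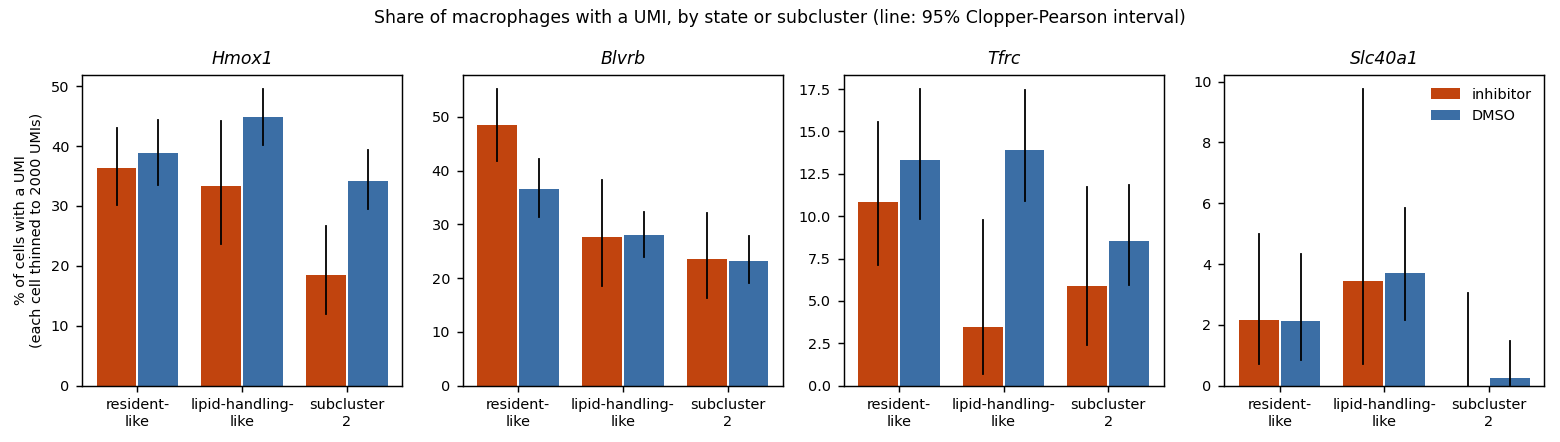
Share of cells with at least 1 UMI of Hmox1, Blvrb, Tfrc and Slc40a1 (%, vertical axes, starting at 0) in resident-like macrophages, lipid-handling-like macrophages and macrophage subcluster 2 after thinning to 2000 UMIs, with inhibitor (orange) left of DMSO (blue); lines are 95% Clopper-Pearson intervals. The Hmox1 bars of subcluster 2 stand apart (18.5% with inhibitor, 34.2% with DMSO), the Tfrc bars differ most in lipid-handling-like cells (3.45% with inhibitor, 13.9% with DMSO), and Blvrb is highest in resident-like cells.

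Outside macrophages and neutrophil-like cells Hmox1 was low, and again lower with inhibitor in several classes. T cell-like cells had 0 UMIs with inhibitor and 17.1 CPM, from 19 UMIs, with DMSO, and the DMSO levels of smooth muscle-like and Schwann-like cells had intervals that met that background. With inhibitor the T cell-like interval reached 12.8 CPM. The inhibitor intervals of smooth muscle-like, Schwann-like, lymphatic endothelial-like and dendritic-like cells met it, and that of endothelial-like cells did not. Lymphatic endothelial-like cells had 18.4 CPM with inhibitor and 61.9 CPM with DMSO, a ratio of 0.297 (0.163 to 0.510). Endothelial-like cells had 18.2 CPM with inhibitor and 35.4 CPM with DMSO, a ratio of 0.513 (0.378 to 0.687). Dendritic-like cells had 18.0 CPM with inhibitor and 46.0 CPM with DMSO, a ratio of 0.392 (0.253 to 0.589). Schwann-like cells had 9.49 CPM with inhibitor and 21.04 CPM with DMSO (ratio 0.451), and smooth muscle-like cells 10.3 CPM with inhibitor and 20.6 CPM with DMSO (ratio 0.499). All 5 classes were past the limit, whereas fibroblast-like cells (31.1 CPM with inhibitor, 35.3 CPM with DMSO), neutrophil-like cells (126 CPM with inhibitor, 151 CPM with DMSO) and adipocyte-like cells (57.0 CPM with inhibitor, 48.8 CPM with DMSO) were not.

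Macrophage marker RNA was also lower in most of those classes with inhibitor, so the Hmox1 that could be carried with it was estimated. The sum of the 10 macrophage markers was 62.9 CPM with inhibitor and 140 CPM with DMSO in smooth muscle-like cells, 249 CPM with inhibitor and 342 CPM with DMSO in endothelial-like cells, and 352 CPM with inhibitor and 610 CPM with DMSO in lymphatic endothelial-like cells. Scaled to the Hmox1 level of macrophage-like cells, that RNA would carry 0.966 CPM with inhibitor and 3.63 CPM with DMSO in smooth muscle-like cells, 3.82 CPM with inhibitor and 8.88 CPM with DMSO in endothelial-like cells, and 5.41 CPM with inhibitor and 15.8 CPM with DMSO in lymphatic endothelial-like cells. With those amounts subtracted, a calculation added after seeing the data, the ratios were 0.549 in smooth muscle-like, 0.541 in endothelial-like and 0.282 in lymphatic endothelial-like cells. In Schwann-like cells 5.61 CPM of the inhibitor level would be carried, which left 3.88 CPM with inhibitor and 12.0 CPM with DMSO. The ratio after subtraction was 1.04 in fibroblast-like and 1.57 in adipocyte-like cells, which were not past the limit before it. The endothelial-like class held 3 clusters: Hmox1 was past the limit in clusters 9 (29.3 CPM with inhibitor, 45.5 CPM with DMSO) and 15 (10.6 CPM with inhibitor, 27.9 CPM with DMSO) and not in cluster 13 (22.8 CPM with inhibitor, 30.9 CPM with DMSO).

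**Figure D2:**
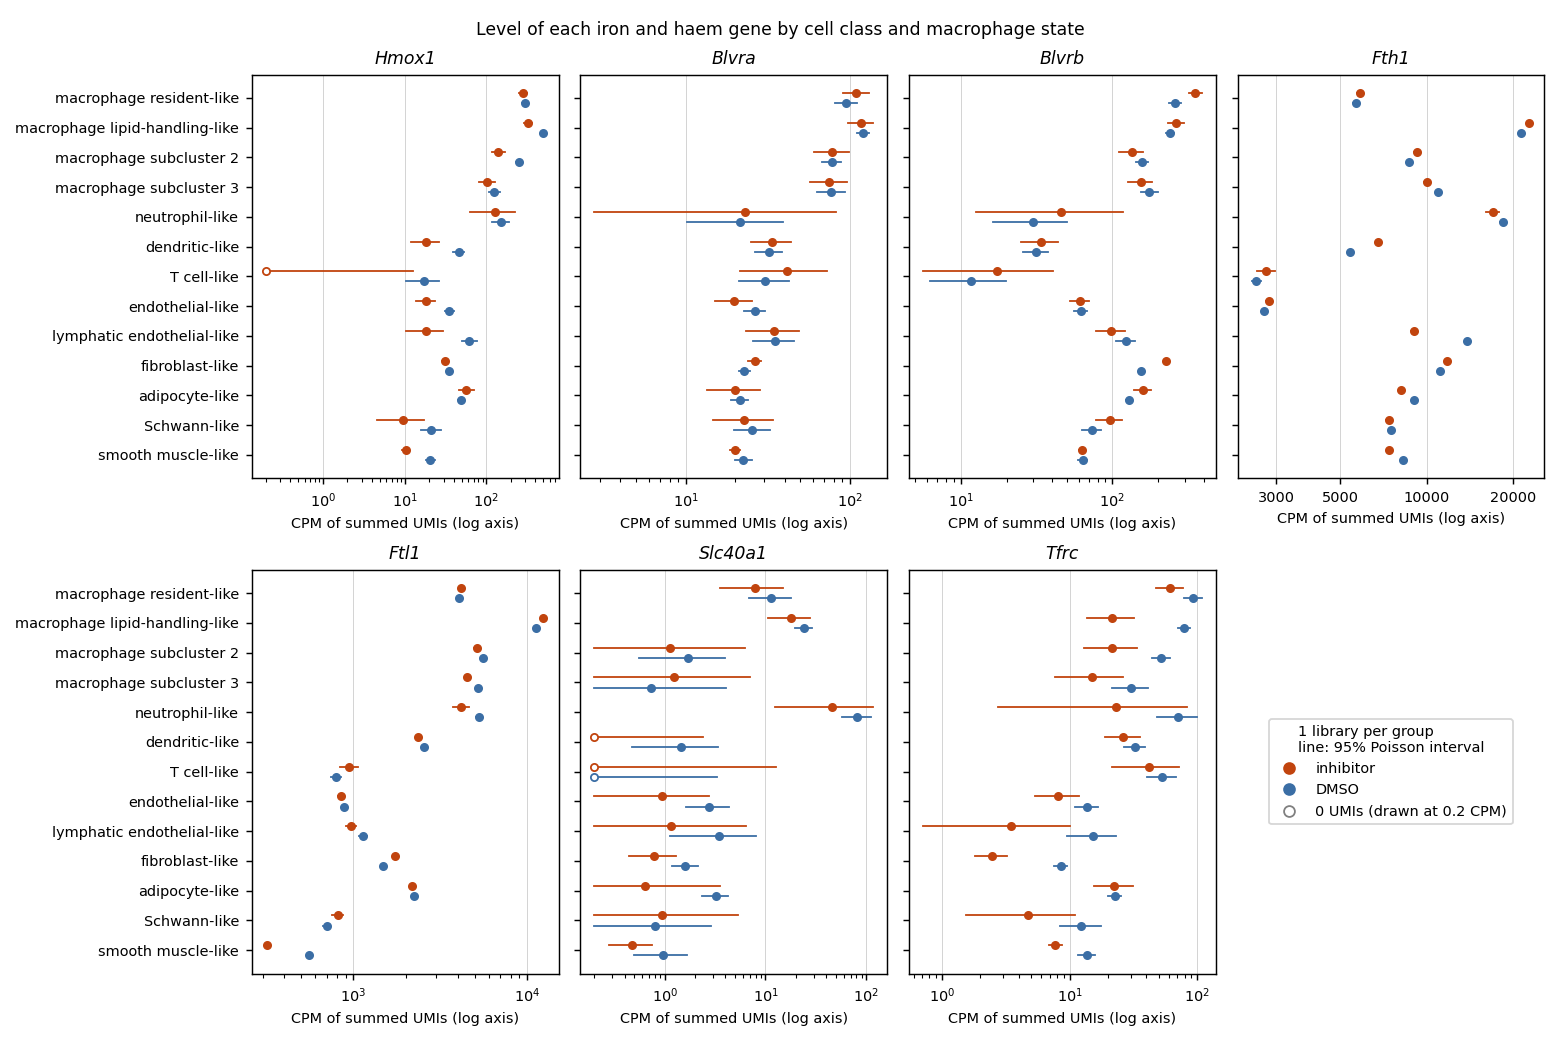
Level of each of the 7 genes (CPM of summed UMIs, horizontal log axes with a range of their own) in 4 macrophage states or subclusters and 9 other classes, with the inhibitor point (orange) above the DMSO point (blue); lines are 95% Poisson intervals and open circles mark 0 UMIs. Hmox1, Blvra, Blvrb, Ftl1 and Tfrc are each highest in a macrophage state, Fth1 is highest in lipid-handling-like macrophages (22715 CPM with inhibitor, 21296 CPM with DMSO), and Slc40a1 is highest in neutrophil-like cells.

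By class and macrophage state the biliverdin reductases behaved unlike Hmox1. Blvra, which reduces biliverdin IX-alpha to bilirubin (chr2:127070665-127097084), stood at 117 CPM with inhibitor and 120 CPM with DMSO in lipid-handling-like cells and 110 CPM with inhibitor and 95.1 CPM with DMSO in resident-like cells. Both levels lay above those of the other named classes compared. Macrophage-like cells held 21.9% of all Blvra UMIs with inhibitor and 38.2% with DMSO, so most lay outside them. It was past the limit in no class or state compared, with ratios between 0.740 (unnamed cluster 4) and 1.36 (T cell-like cells). Blvrb, a flavin and biliverdin IX-beta reductase abundant in red cells (chr7:27447978-27466144), was highest in resident-like macrophages, at 354 CPM with inhibitor and 259 CPM with DMSO. Lipid-handling-like cells had 263 CPM with inhibitor and 240 CPM with DMSO, and with DMSO the intervals of the states met. The resident-like ratio, 1.37 (1.19 to 1.57), left out 1 but was not past the limit. The thinned share of resident-like cells with a Blvrb UMI was 48.5% (112 of 231) with inhibitor and 36.7% (121 of 330) with DMSO. The erythroid marker sum in resident-like cells was 97.7 CPM with inhibitor and 16.3 CPM with DMSO, and its part in the Blvrb level was not tested. In fibroblast-like cells Blvrb stood at 226 CPM with inhibitor and 155 CPM with DMSO, a ratio of 1.46 (1.40 to 1.52), just inside the limit. Most DMSO fibroblast-like cells were in cluster 1 (270 cells with inhibitor, 1004 with DMSO) and the largest inhibitor cluster was cluster 2 (884 cells with inhibitor, 267 with DMSO). Within cluster 1 the Blvrb ratio was 1.60, past the limit, and it was 1.36 in cluster 2 and 1.47 in cluster 6. T cell-like cells had little Blvrb, at 17.3 CPM with inhibitor and 11.7 CPM with DMSO.

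The ferritin chains were among the most abundant mRNAs of macrophages and differed little there. Fth1, the heavy chain with the ferroxidase centre (chr19:9980598-9985098), stood at 22715 CPM with inhibitor and 21296 CPM with DMSO in lipid-handling-like cells (ratio 1.07) and at 5889 CPM with inhibitor and 5677 CPM with DMSO in resident-like cells (ratio 1.04). Ftl1, the light chain that promotes storage (chr7:45457944-45459884), stood at 12339 CPM with inhibitor and 11259 CPM with DMSO in lipid-handling-like cells (ratio 1.10) and at 4138 CPM with inhibitor and 4041 CPM with DMSO in resident-like cells (ratio 1.02). Both chains were thus higher in the lipid-handling-like state than in the resident-like state in each library, and neither was past the limit in either state. Neutrophil-like cells came close to that Fth1 level, at 17013 CPM with inhibitor and 18396 CPM with DMSO, whereas endothelial-like cells (2828 CPM with inhibitor, 2719 CPM with DMSO) and T cell-like cells (2762 CPM with inhibitor, 2555 CPM with DMSO) were lowest. Reads of near-identical copies could be split by the counting, so ferritin values are uncertain to that extent. Of the copies in the annotation, Ftl1-ps1 reached 29.5 CPM with inhibitor and 36.9 CPM with DMSO in macrophage-like cells, and the other 4 stayed under 1 CPM there.

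Among macrophage-like cells as a whole, both ferritin chains were lower with inhibitor, with a ratio of 0.868 for Fth1 and 0.870 for Ftl1. The resident-like state, with its lower ferritin, made up 40.5% of macrophage-like cells with inhibitor and 22.8% with DMSO, and the lipid-handling-like state 13.4% with inhibitor and 28.3% with DMSO. Weighting the DMSO subclusters to the makeup of the inhibitor library gave ratios of 1.03 for Fth1 and 1.00 for Ftl1. The same weighting moved Hmox1 to 0.781, against 0.708 unweighted, and left Tfrc at 0.497, against 0.496.

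Ferritin levels were past the limit in other classes. In lymphatic endothelial-like cells Fth1 stood at 9024 CPM with inhibitor and 13795 CPM with DMSO, a ratio of 0.654 (0.637 to 0.672). In smooth muscle-like cells Ftl1 stood at 319 CPM with inhibitor and 558 CPM with DMSO, a ratio of 0.572 (0.555 to 0.589). The clusters that made up the smooth muscle-like class differed in share between the libraries. Cluster 0 held 74.7% of the class with inhibitor and 38.4% with DMSO, and cluster 7, with more fibroblast-marker RNA (4541 CPM with inhibitor, 9404 CPM with DMSO), held 12.2% with inhibitor and 47.2% with DMSO. Within cluster 0, Ftl1 stood at 267 CPM with inhibitor and 288 CPM with DMSO and Hmox1 at 6.997 CPM with inhibitor and 7.42 CPM with DMSO. Cluster 7 was the highest of the 3 for both genes, with Ftl1 at 543 CPM with inhibitor and 719 CPM with DMSO and Hmox1 at 19.965 CPM with inhibitor and 29.7 CPM with DMSO. In cluster 12 Ftl1 stood at 289 CPM with inhibitor and 440 CPM with DMSO, past the limit, and Hmox1 at 13.8 CPM with inhibitor and 8.37 CPM with DMSO, in the opposite direction to the class. The part of cluster makeup in the class levels was not tested. At clustering resolutions 0.5 and 2 neither gene was past the limit in smooth muscle-like cells.

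**Figure D3:**
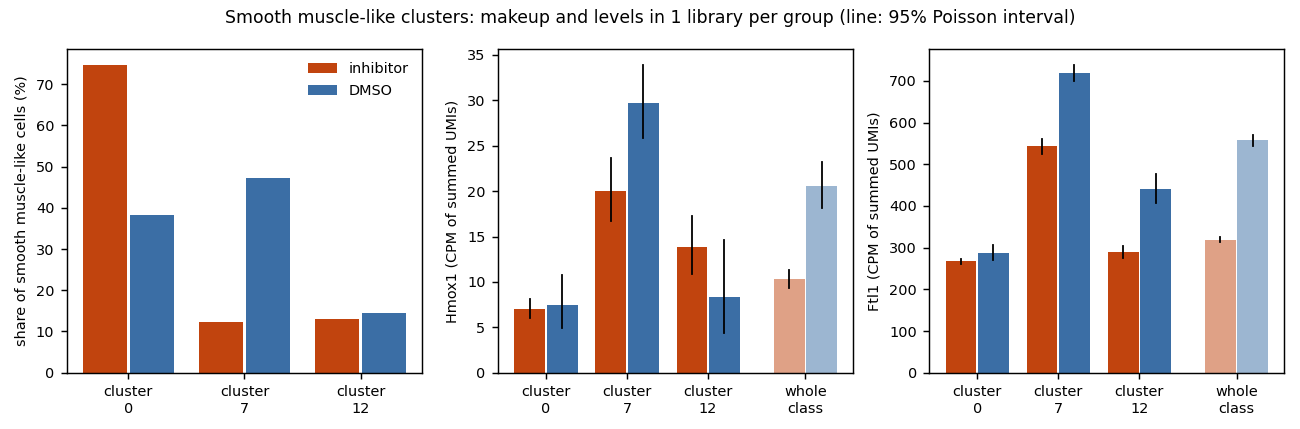
Share of smooth muscle-like cells in clusters 0, 7 and 12 (%, left), and the levels of Hmox1 (middle) and Ftl1 (right) in CPM of summed UMIs in each cluster and in the whole class (paler bars), with inhibitor (orange) left of DMSO (blue); all axes start at 0 and lines are 95% Poisson intervals. Cluster 0 holds 74.7% of the class with inhibitor and 38.4% with DMSO, and the whole-class bars differ more (Ftl1 319 CPM with inhibitor, 558 CPM with DMSO) than the bars within cluster 0.

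Slc40a1, which encodes ferroportin (chr1:45908068-45926523), was scarce. Neutrophil-like cells had 45.9 CPM with inhibitor, from 4 UMIs, and 80.9 CPM with DMSO, from 38 UMIs. Lipid-handling-like macrophages had 17.7 CPM with inhibitor (19 UMIs) and 23.9 CPM with DMSO (115 UMIs), and resident-like macrophages had 7.78 CPM with inhibitor and 11.4 CPM with DMSO. None of these ratios had an interval that left out 1. The thinned share of cells with an Slc40a1 UMI was 3.45% (3 of 87) with inhibitor and 3.70% (17 of 460) with DMSO in lipid-handling-like cells, and 2.16% with inhibitor and 2.12% with DMSO in resident-like cells. T cell-like cells had 0 of 63 with inhibitor, which allows up to 4.76%, and 0 of 227 with DMSO, which allows up to 1.32%. The shares of both states with inhibitor therefore lie within that limit. With DMSO the interval of resident-like cells (0.857 to 4.32%) reached below it, that of lipid-handling-like cells (2.17 to 5.85%) did not, and subcluster 2 (1 of 374 cells) and subcluster 3 (1 of 181) lay under it. Neutrophil-like cells held 1101 CPM of macrophage marker RNA with inhibitor and 1308 CPM with DMSO, and its part in their Slc40a1 level was not tested.

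In DMSO lipid-handling-like cells the Slc40a1 UMIs sat largely with Hmox1. Of thinned cells with an Hmox1 UMI, 15 of 206 (7.28%, 4.13 to 11.7%) also had an Slc40a1 UMI, and of those without one 2 of 254 (0.787%, 0.0955 to 2.82%) did. With inhibitor the counts were 0 of 29 cells with an Hmox1 UMI and 3 of 58 without one, too few to read an order.

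Tfrc, transferrin receptor 1 (chr16:32608920-32632794), was the gene of the set with the widest difference in macrophages. In lipid-handling-like cells it stood at 21.4 CPM (13.6 to 32.2) with inhibitor, from 23 UMIs, and 78.7 CPM (71.0 to 87.0) with DMSO, from 379 UMIs, a ratio of 0.273 (0.171 to 0.415). Subcluster 2 had 21.5 CPM with inhibitor and 52.2 CPM with DMSO, a ratio of 0.412 (0.242 to 0.666), and subcluster 3 had 14.96 CPM with inhibitor and 30.1 CPM with DMSO, a ratio of 0.497 (0.238 to 0.963). Resident-like cells, whose interval met that of T cell-like cells with inhibitor and that of lipid-handling-like cells with DMSO, had 61.4 CPM with inhibitor and 92.7 CPM with DMSO, a ratio of 0.662 (0.492 to 0.882). All 4 were past the limit on the lower side, although the interval of subcluster 3 nearly reached 1. The resident-like ratio was 0.690, not past the limit, without the highest cell of each library, and that call was kept in 5 of 13 alternatives. The dividing subcluster 5, with 34 cells with inhibitor and 63 with DMSO and therefore not compared, had 24.4 CPM with inhibitor and 22.6 CPM with DMSO.

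A few DMSO cells held much of the Tfrc. The highest DMSO lipid-handling-like cell carried 68 of the 379 UMIs and the top 10 cells 46.7% of them, and no inhibitor macrophage-like cell carried 5 or more Tfrc UMIs while 15 DMSO cells did. Without the highest cell of each library the lipid-handling-like levels were 19.1 CPM with inhibitor and 65.4 CPM with DMSO, a ratio of 0.292. The share of cells with a UMI, which a single cell cannot move far, was 3.45% (3 of 87) with inhibitor and 13.9% (64 of 460) with DMSO after thinning, and 17.6% with inhibitor and 29.6% with DMSO unthinned. In resident-like cells the thinned share was 10.8% with inhibitor and 13.3% with DMSO, and in subcluster 2 it was 5.88% with inhibitor and 8.56% with DMSO, and both pairs of intervals overlapped.

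Outside macrophages Tfrc was past the limit in no named class. Fibroblast-like cells had 2.45 CPM with inhibitor and 8.50 CPM with DMSO, smooth muscle-like cells 7.74 CPM with inhibitor and 13.6 CPM with DMSO, and endothelial-like cells 8.15 CPM with inhibitor and 13.7 CPM with DMSO, all under the minimum level. Adipocyte-like cells had 22.4 CPM with inhibitor and 22.5 CPM with DMSO, T cell-like cells 41.5 CPM with inhibitor and 53.0 CPM with DMSO, and dendritic-like cells 26.4 CPM with inhibitor and 32.3 CPM with DMSO. Neutrophil-like cells had 22.9 CPM with inhibitor, from 2 UMIs, and 70.3 CPM with DMSO, from 33 UMIs.

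Counted by class, few of the 7 genes were past the limit. In macrophage-like cells it was 1 of 6 measured genes (Tfrc, lower), against 7.4% of all 6470 measured genes in either direction and 4.13% on the lower side. The class mixed clusters unequally, since cluster 3 held 210 cells with inhibitor and 927 with DMSO and cluster 5 held 395 with inhibitor and 631 with DMSO. Cluster 19 of the class held 78 cells with inhibitor and 118 with DMSO. Within cluster 19 Blvrb was past the limit on the higher side (ratio 1.67, 1.33 to 2.10). Tfrc (0.853, 0.435 to 1.59) and Hmox1 (1.18, 0.983 to 1.40) were not past it there. In resident-like cells 1 of 6 genes was past the limit (Tfrc), against 13.8% of all measured genes in either direction and 6.14% on the lower side. In lipid-handling-like cells it was 2 of 7 (Hmox1 and Tfrc), against 11.6% and 8.01% lower. Subcluster 2 had 2 of 6 (Hmox1 and Tfrc), against 11.0% and 7.48% lower, and subcluster 3 had 1 of 6 (Tfrc), against 14.7% and 9.37% lower. Every member past the limit in the whole macrophage-like class and in these states and subclusters was lower with inhibitor. The median log2 ratio over all 7 was 0.03 in resident-like cells, against 0.06 over all measured genes, and -0.04 in lipid-handling-like cells, against -0.03. It was lower than over all measured genes in macrophage-like cells (-0.20, against 0.01), subcluster 3 (-0.18, against -0.05), endothelial-like cells (-0.34, against -0.04) and lymphatic endothelial-like cells (-0.46, against -0.03). It was higher in fibroblast-like cells (0.08, against -0.00076), T cell-like cells (0.11, against -0.02) and unnamed cluster 4 (0.08, against -0.09), and lower in the rest of the units compared.

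In smooth muscle-like cells 2 of 5 (Hmox1 and Ftl1) were past the limit, both lower, against 12.1% of all measured genes in either direction and 8.54% on the lower side. In lymphatic endothelial-like cells it was 2 of 5 (Hmox1 and Fth1), both lower, against 15.7% and 9.84% lower. Hmox1 alone was past it, again lower, in endothelial-like cells (1 of 5, against 13.4% and 8.92% lower), dendritic-like cells (1 of 6, against 13.3% and 9.88% lower) and Schwann-like cells (1 of 5, against 11.1% and 5.57% lower). In unnamed cluster 4 it was 3 of 6 (Blvrb and Fth1 higher, Tfrc lower), against 23.1%. No gene of the set was past it in fibroblast-like cells (0 of 5, against 13.1%), adipocyte-like cells (0 of 6, against 14.2%), neutrophil-like cells (0 of 5, against 9.61%), T cell-like cells (0 of 4, against 10.2%) or unnamed cluster 14 (0 of 5, against 17.4%). With so few genes a single one moves the share by more than the background in every unit but unnamed cluster 4. The counts are therefore given beside the background and nothing is read from their difference.

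**Figure D4:**
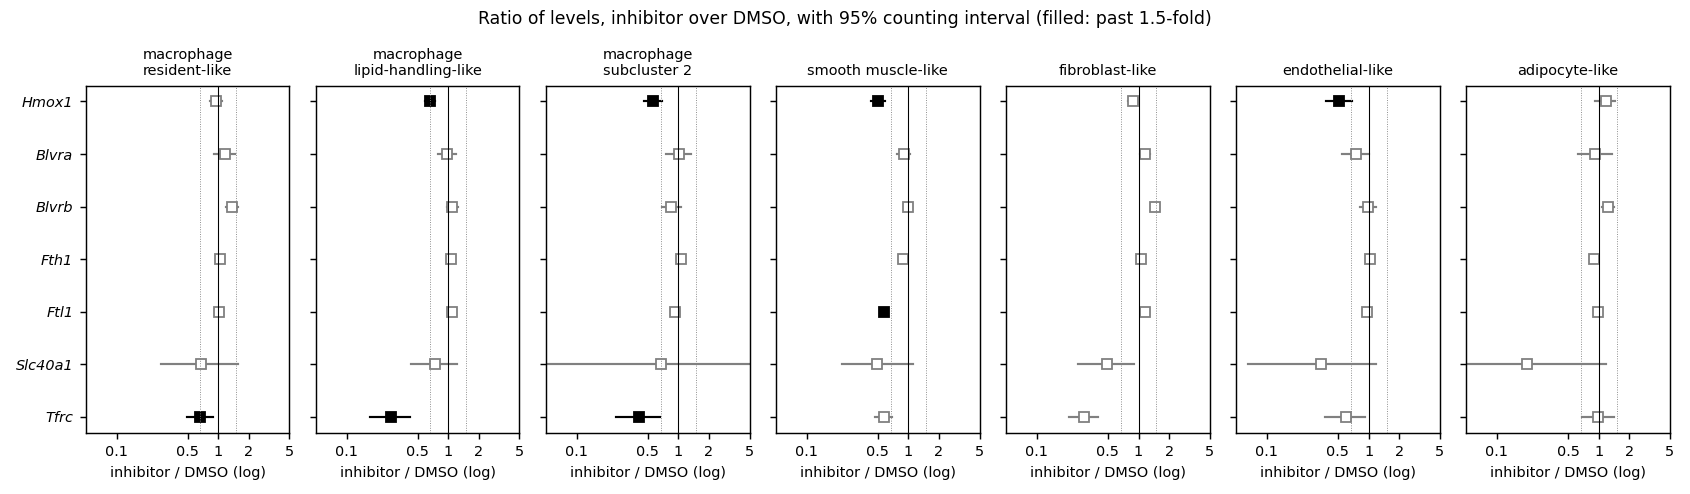
Ratio of the level with inhibitor to the level with DMSO (log axis) for each of the 7 genes in 3 macrophage states or subclusters and 4 other classes; lines are 95% counting intervals, dotted lines mark 1.5-fold either way, and filled squares are past the limit. Filled squares are at Tfrc in all 3 macrophage panels and at Hmox1 in lipid-handling-like cells, subcluster 2, smooth muscle-like and endothelial-like cells and at Ftl1 in smooth muscle-like cells, all left of 1, and Fth1 stays close to 1 in every panel.

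The other genes of iron and haem handling were read from 72 listed genes in 9 roles. In macrophage-like cells 42 were measured, 3 past the limit on the higher side and 6 on the lower. Of all measured genes there, 7.4% were past it in either direction and 4.13% on the lower side. Ceruloplasmin (Cp), the ferroxidase that works with ferroportin, had 41.3 CPM with inhibitor and 22.4 CPM with DMSO, but resident-like cells, whose share differed, held 167 of its 196 UMIs with inhibitor and 123 of 303 with DMSO, and in lipid-handling-like cells it had 1 UMI with inhibitor and 56 UMIs with DMSO. Glutathione reductase (Gsr) had 47.8 CPM with inhibitor and 90.8 CPM with DMSO. Of the 9 measured NRF2 targets outside iron handling, genes that share the oxidant-response factor with Hmox1, 4 were lower and none higher, against 4.13% of all measured genes lower. None was past the limit in the resident-like state (0 of 6 measured) or the lipid-handling-like state (0 of 9), where Gsr had 91.4 CPM with inhibitor and 96.3 CPM with DMSO, while 1 of 6 was lower in subcluster 2 and 2 of 6 in subcluster 3. Of all measured genes, 7.48% were lower in subcluster 2 and 9.37% in subcluster 3. Cd163, the haemoglobin scavenger receptor, had 296 CPM with inhibitor and 70.2 CPM with DMSO, and it is also a marker of the resident-like state. Within that state it had 1075 CPM with inhibitor and 447 CPM with DMSO, a ratio of 2.41 (2.20 to 2.64), past the limit. Within lipid-handling-like cells it was also past the limit, at 25.2 CPM (27 UMIs) with inhibitor and 13.5 CPM (65 UMIs) with DMSO. In resident-like cells 3 of 38 were higher, among them Cp (144 CPM with inhibitor, 74.1 CPM with DMSO), and 2 were lower, Slc11a1, the phagosomal iron transporter (113 CPM with inhibitor, 172 CPM with DMSO), and Hp. Of all measured genes there, 13.8% were past the limit in either direction and 6.14% on the lower side. In lipid-handling-like cells 1 of 41 was lower, Hp, against 8.01% of all measured genes. In subcluster 2 it was 5 of 36 lower, against 7.48% of all measured genes. Thioredoxin reductase Txnrd1 (29.5 CPM with inhibitor, 68.5 CPM with DMSO) was among the 5.

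Haptoglobin (Hp), the plasma protein that binds free haemoglobin, was lower with inhibitor and past the limit in every compared class and state except adipocyte-like cells. T cell-like cells, with 10.4 CPM with inhibitor and 123 CPM with DMSO, and dendritic-like cells, with 4.51 CPM with inhibitor and 81.9 CPM with DMSO, were among them. Its level was 19.0 CPM with inhibitor and 145 CPM with DMSO in resident-like cells, and 33.6 CPM with inhibitor and 104 CPM with DMSO in lipid-handling-like cells. It was 159 CPM with inhibitor and 731 CPM with DMSO in fibroblast-like cells, and 17.9 CPM with inhibitor and 179 CPM with DMSO in smooth muscle-like cells. Adipocyte-like cells, 83 with inhibitor and 797 with DMSO, held 13054 CPM of Hp with inhibitor and 10753 CPM with DMSO. The adipocyte marker sum in macrophage-like cells was 55.4 CPM with inhibitor and 268 CPM with DMSO, in T cell-like cells 58.8 CPM with inhibitor and 350 CPM with DMSO, in smooth muscle-like cells 158 CPM with inhibitor and 279 CPM with DMSO, and in fibroblast-like cells 32.5 CPM with inhibitor and 150 CPM with DMSO, and its part in the Hp levels was not tested.

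In fibroblast-like cells 43 listed genes were measured, 3 higher and 7 lower, against 13.1% of all measured genes past the limit in either direction. Cluster 1 of the class held 270 cells with inhibitor and 1004 with DMSO, and cluster 2 held 884 with inhibitor and 267 with DMSO. The part of this makeup in the counts of the class was not tested. Of the 7 measured iron uptake genes in the class 5 were lower. The 13.1% covers both directions, and the share of all measured genes on the lower side was not computed for fibroblast-like cells. Lipocalin 2 (Lcn2), which binds iron-carrying siderophores, had 86.6 CPM with inhibitor and 416 CPM with DMSO there, and the higher ones included Hfe (43.1 CPM with inhibitor, 26.4 CPM with DMSO) and the iron-sulphur scaffold Iscu (134 CPM with inhibitor, 88.4 CPM with DMSO). Smooth muscle-like cells had none higher and 5 of 34 lower, against 8.54% of all measured genes lower. Lcn2 stood there at 19.6 CPM with inhibitor and 102 CPM with DMSO. In endothelial-like cells 2 of 41 were higher, Bmp6, the signal that induces hepcidin (317 CPM with inhibitor, 188 CPM with DMSO), and Cp (308 CPM with inhibitor, 197 CPM with DMSO), and 6 were lower, among them Lrp1, the haemopexin receptor (22.9 CPM with inhibitor, 59.1 CPM with DMSO). Of all measured genes there, 13.4% were past the limit in either direction and 8.92% on the lower side.

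Across 23 points, each a class or macrophage state in 1 library, the genes most like each member were found by the Pearson correlation of log2(CPM + 5). The points share their libraries and differ in depth, so these values are descriptions with no test. Hmox1 was most like Pla2g7 (r = 0.926), Sdcbp (0.913) and Grn (0.910), and Blvra was most like Ap2s1 (0.962). Blvrb was most like Lamp1 (0.891) and Selenop (0.863), Ftl1 most like Atp6v1b2 (0.921), Cd14 (0.918) and Creg1 (0.917), and Fth1 most like Gm6977 (0.826) and Gabarap (0.806). Slc40a1 was most like Il1a (0.949) and Rab7 (0.912), and Tfrc most like Eloa (0.894) and Stxbp2 (0.883). Between members the highest correlation was that of Hmox1 with Ftl1 (0.865), while Fth1 and Ftl1, the chains of one protein shell, correlated at 0.580, and Fth1 and Tfrc did not vary together (-0.00071).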

How the data were processed

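Single-cell libraries of aneurysmal mouse aorta were analysed, 1 per group. The values were UMI counts per gene and barcode as the authors deposited them. Per the file headers the matrices came from Cell Ranger 6.1.1, and the submitters' processing notes name the GRCm38 build and Seurat. No source used here says what Seurat was used for or whether intronic reads were counted. All 55450 gene identifiers matched GENCODE M21.

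Barcodes with under 200 genes or over 20% mitochondrial UMIs were left out (10 and 282 barcodes with inhibitor, 18 and 443 with DMSO). Doublets were scored per library with Scrublet as built into scanpy 1.11.5 at an expected 6%. The automatic threshold called none with DMSO, so the inhibitor library's threshold (0.2144) was applied in each, which removed 440 barcodes with inhibitor and 253 with DMSO. Both libraries were clustered together on 2000 variable genes, 30 principal components and 15 neighbours (leidenalg 0.10.2, resolution 1.0, macrophages again at 0.5). A class needed at least 3 of its markers in at least 20% of cells and a score over the next class; this scoring rule was set after the clusters had been seen, and cell classes are rebuilt here rather than taken from the authors. Units were compared with at least 50 cells in each library.

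UMIs were summed per unit. Levels were given as CPM, log2 values used a pseudocount of 5 CPM, Poisson intervals, ratio intervals and Clopper-Pearson intervals were exact at 95% (scipy 1.17.1), and a count of 0 was given with the limit that 3 counts allow. The ratio procedure was tested on simulated data. Of the other pathway genes, at most 2 per direction and class were named, by the size of the log2 ratio, and 3 genes were ranked per member for likeness; 1 pathway gene is not reported here. The members, the gene lists and the markers were chosen with earlier results of these data known. Alternatives covered filters, clustering, normalisation, the fold limit, single clusters and doublets, plus 4 added after seeing the data.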

Additional observations from a re-analysis of the deposited data

Results flagged for a closer look

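Fth1 in unnamed cluster 4 ran against Fth1 in lymphatic endothelial-like cells. Cluster 4, with a median of 793 UMIs per cell with inhibitor and 764 with DMSO, held Fth1 at 16696 CPM with inhibitor and 7019 CPM with DMSO, a ratio of 2.38 (95% counting interval 2.29 to 2.47). In lymphatic endothelial-like cells the ratio was 0.654 (0.637 to 0.672). The 2 were set apart because their directions were opposite and both past the 1.5-fold limit. The difference between them was not tested. The erythroid marker sum of cluster 4 was 1050 CPM with inhibitor and 19977 CPM with DMSO, and its part in the Fth1 level was not tested. Cluster 4 also had Blvrb at 216 CPM with inhibitor and 134 CPM with DMSO (ratio 1.60) and Tfrc at 14.5 CPM with inhibitor and 44.8 CPM with DMSO (ratio 0.324), so 3 of its 6 measured genes of the set were past the limit, against 23.1% of all measured genes.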

How the results depend on the processing

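Over 49 results, 9 gene ratios were past the limit, and 115 of their 119 alternatives kept the direction, while 85 of 116 with a limit kept the call. Both totals include alternatives whose outcome was fixed. The 2-fold limit, no minimum level and a smaller pseudocount could not change a direction. No minimum level and the smaller pseudocount could not remove a call either. The 4 reversals were all Hmox1 in smooth muscle-like cells, whose log2 ratio was -0.74 and became 0.49 within cluster 12, 0.15 with cells of at least 1000 genes, 0.062 at clustering resolution 0.5 and 0.052 at resolution 2. Genes of the set past the limit there (2) became 1 with a mean over cells, at 2-fold or within cluster 12, and 0 within clusters 0 or 7, at 1000 genes or at resolutions 0.5 or 2; the listed pathway genes (5) became 14 with no minimum level, 3 at resolution 0.5 and 2 within cluster 0, at 1000 genes or at resolution 2. In macrophage-like cells the set's count (1) became 2 with no minimum level (Slc40a1 added), within cluster 3 or at 10% mitochondrial UMIs (Hmox1 added in both), and the pathway count (9) became 2 at 2-fold and 3 within cluster 3. Within cluster 19 the gene of the set past the limit was Blvrb, higher with inhibitor, and not Tfrc. In fibroblast-like cells the set's count (0) became 2 with no minimum level (Slc40a1 and Tfrc) and 1 within cluster 1 (Blvrb), and the pathway count (10) became 3 at 2-fold and 4, 5 and 6 within clusters 1, 2 and 6. Tfrc in lipid-handling-like cells kept its call in 14 of 14 alternatives (log2 ratio -2.06 to -1.17). In subcluster 2 Tfrc kept its call in 7 of 7, none of which used another cell filter or clustering. Tfrc in resident-like cells kept it in 5 of 13 (-0.62 to -0.33), and Hmox1 in lipid-handling-like cells in 8 of 14. The causes were not tested. No paired analysis was possible because each group has 1 library, and for the same reason no library could be left out. Low counts limit Slc40a1 everywhere, and Tfrc outside macrophages.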
